A study of Mus musculus with 6 samples.

Results

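The WNK-SPAK pathway is represented here by 8 genes chosen by name, Wnk1, Wnk4, Stk39, Oxsr1, Klhl3, Cul3, Nedd4l and Kcnj10, out of 24346 gene symbols in the expression table. All 8 were found, and all passed a filter that kept genes averaging 1 FPKM or more over the 6 libraries (FPKM counts fragments relative to transcript length and to the mapped fragments). The libraries came from kidneys of C57BL/6 mice, 3 with the surgery labelled IVCC and 3 with the surgery labelled Sham, as bulk RNA-seq with a stranded mRNA kit. The study profiled congested kidneys, and its comparison asks how the kidney transcriptome differs between IVCC and Sham. The labels do not spell out IVCC, the sources used here give neither age, sex nor time after surgery, and no label says that replicates were separate animals. The p-values therefore measure the spread between these libraries.

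In the distal nephron, WNK kinases sense intracellular chloride and phosphorylate the kinases SPAK and OSR1, which in turn phosphorylate and activate sodium-coupled chloride cotransporters. An E3 ubiquitin ligase built from KLHL3 and cullin 3 marks the WNK kinases for degradation, and mutations in WNK1, WNK4, KLHL3 or CUL3 cause familial hyperkalaemic hypertension in humans. The channel Kir4.1, the product of Kcnj10, sets the basolateral membrane voltage of the distal convoluted tubule and so the chloride that the WNK kinases sense, while NEDD4-2, the product of Nedd4l, removes the epithelial sodium channel from the membrane. All of these steps are largely controlled by phosphorylation and protein degradation, neither of which RNA levels measure.

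Transcripts of all 8 genes were detected in every library, and none of the 8 was called different between IVCC and Sham. Of the 8, 0 had an adjusted p under 0.05 in limma with Benjamini-Hochberg adjustment over all 12090 tested genes, beside 0% of all tested genes, and 0 had an unadjusted p under 0.05, beside 3.56% of all tested genes. Fitted values were higher in IVCC for 6 members and lower for 2, with a median log2 fold change of 0.12, beside 48.4% of all tested genes with a fitted value above 0 and a median of -0.01. As TPM, a rescaling that moved the median of all tested genes to 0.15, 7 members were higher and 1 lower with a median of 0.29, and after a length and GC correction described further on 5 were higher and 3 lower with a median of 0.02. Groups did not overlap for 1 member, Oxsr1, beside 8.31% of all tested genes. Higher without overlap in IVCC were thus 1 member and 4.09% of all tested genes, and lower without overlap were 0 members and 4.22% of all tested genes. The largest fitted fold was that of Klhl3, which was also the member that varied most between libraries of the same group.

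Klhl3, Wnk1 and Kcnj10 shared a pattern across the libraries that is described further on, and their promoters are shown so that these members can be compared at the sequence level. RefSeq windows of GRCm38.p6 were matched for 7 members, Nedd4l not among them, and the 250 bases before the annotated start are printed 5′ to 3′ on the gene's strand. Capitals mark a match on either strand to AGAACA, the half-site bound by mineralocorticoid and glucocorticoid receptors. The windows are chr13:58113648-58113897 on the minus strand for Klhl3, chr6:120038656-120038905 on the minus strand for Wnk1, and chr1:172340960-172341209 on the plus strand for Kcnj10.
Klhl3: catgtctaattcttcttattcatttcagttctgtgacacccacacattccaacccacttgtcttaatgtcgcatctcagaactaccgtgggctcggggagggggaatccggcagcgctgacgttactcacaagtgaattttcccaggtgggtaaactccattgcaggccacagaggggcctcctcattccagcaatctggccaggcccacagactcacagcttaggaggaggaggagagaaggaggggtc
Wnk1: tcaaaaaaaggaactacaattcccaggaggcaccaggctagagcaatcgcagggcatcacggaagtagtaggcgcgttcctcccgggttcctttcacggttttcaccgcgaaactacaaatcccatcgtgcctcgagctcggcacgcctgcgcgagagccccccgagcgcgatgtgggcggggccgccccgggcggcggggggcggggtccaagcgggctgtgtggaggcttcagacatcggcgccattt
Kcnj10: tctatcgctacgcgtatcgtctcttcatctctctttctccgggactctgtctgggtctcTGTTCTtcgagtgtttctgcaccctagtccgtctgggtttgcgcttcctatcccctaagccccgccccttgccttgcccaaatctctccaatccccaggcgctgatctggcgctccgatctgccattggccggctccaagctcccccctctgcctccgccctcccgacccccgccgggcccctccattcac
The Kcnj10 window holds 1 match, written TGTTCT on the printed strand, which begins 191 bases before the start. The Klhl3 and Wnk1 windows hold 0, and 16.1% of 32851 windows of the same length in the RefSeq table hold at least 1 match. The E-box CACGTG was found in none of the 7 members' windows and in 6.02% of all windows. The NFAT core TGGAAA, searched on both strands, was found in the Wnk4 and Stk39 windows and in 18.6% of all windows. The 3 printed windows differ in base composition: G and C make up 53.2% of the Klhl3 window, which holds 6 CpG dinucleotides, against 64.0% and 26 in Wnk1 and 62.0% and 17 in Kcnj10. A match is a run of letters and not evidence of binding. The Wnk1 window lies before the full-length transcript, whereas the short kidney-specific transcript of Wnk1, which lacks most of the kinase domain, starts inside the gene. The deposited values hold 1 number per gene, so the forms were not told apart.

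FPKM hold no read totals. From the steps between the lowest values, nominal sizes of the IVCC libraries came to 8030000 to 8990000 reads and those of the Sham libraries to 6040000 to 7230000, with 81.2% to 86.4% of low values per library within 0.1 of a whole read. True depth is not known, and every nominal size in IVCC was above every one in Sham. On that nominal scale Wnk1 rested on 1958 to 4529 reads per library and Klhl3 on 32 to 419. Markers of proximal tubule (Slc34a1), thick limb (Umod), distal convoluted tubule (Slc12a3) and principal cells (Aqp2) were detected in all 6 libraries, while 4 of 10 markers of fat, adrenal cortex and urothelium (Adipoq, Plin1, Cfd and Cyp11b1) were listed at 0 in all 6. Of the rest of that list only Fabp4, which endothelium also expresses, passed the filter, at 74.7 to 138.8 FPKM in IVCC kidneys and 85.9 to 140.3 FPKM in Sham kidneys, with a log2 fold change of -0.13. The adrenal gene Star was at 0.627 to 1.198 FPKM in IVCC kidneys and 0.858 to 1.16 FPKM in Sham kidneys, and Cyp21a1 was above 0 in IVCC replicates 1 and 3, at 0.07 and 0.063 FPKM. The urothelial genes Upk3a, Upk1b and Krt5 were highest in Sham replicate 3, at 2.525, 1.14 and 0.49 FPKM, and no higher than 0.241 FPKM in any other library. The part of urothelium in the values of that library was not tested.

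Since FPKM are scaled to length, levels can be ordered between genes. Over the 6 libraries Cul3 was the most abundant member, at 61.1 ± 3.92 FPKM (SD, n = 6), followed by Wnk4 at 51.4 ± 3.71 FPKM and Wnk1 at 47.3 ± 9.41 FPKM. Kcnj10 averaged 16.9 ± 2.77 FPKM, Nedd4l 13.7 ± 1.80 FPKM, Oxsr1 12.04 ± 0.921 FPKM and Stk39 11.0 ± 1.17 FPKM. Klhl3 came last, at 3.64 ± 2.52 FPKM. The steps from Wnk1 to Kcnj10 and from Stk39 to Klhl3 held in 6 of 6 libraries. Wnk4 was above Wnk1 in 4 of 6 libraries, within the spread of Wnk1, and the other neighbours kept their order in 5 of 6. Nedd4l and Oxsr1, and Oxsr1 and Stk39, differed by less than the larger SD of each pair, so the order of these 3 genes is not firm. The adaptor Klhl3 had the lowest level of the 8 and its scaffold Cul3 the highest.

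**Figure D1:**
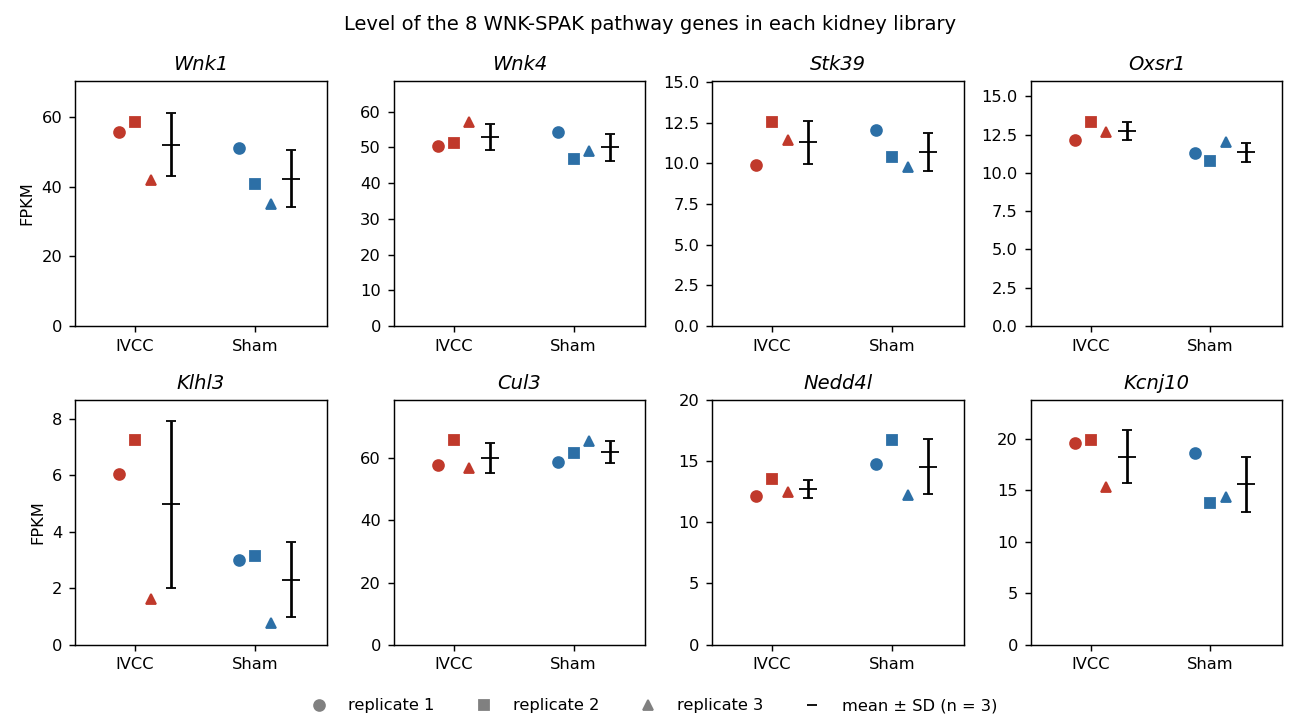
FPKM of each of the 8 pathway genes in the 3 IVCC libraries (red) and the 3 Sham libraries (blue), with marker shapes for replicate numbers and black bars for the mean ± SD of 3 libraries. Axes start at 0. Oxsr1 is the only panel in which the groups do not overlap, and Klhl3 is lowest in replicate 3 of both groups, at 1.62 and 0.754 FPKM.

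Among the kinases at the head of the pathway, Wnk1 (chromosome 6, 119923969 to 120038672, minus strand, GENCODE M21 on GRCm38, the assembly that mm10 names) was at 55.9, 58.7 and 41.9 FPKM in IVCC replicates 1 to 3, against 51.2, 40.9 and 35.0 FPKM in Sham replicates 1 to 3. Sham replicate 1 lay above IVCC replicate 3, so the groups overlapped, and replicate 3 was the lowest library of each group. The means were 52.2 ± 9.03 FPKM in IVCC kidneys and 42.3 ± 8.19 FPKM in Sham kidneys (SD, n = 3 each). On log2(FPKM + 1) IVCC exceeded Sham by 0.30 (standard error 0.18), with a 95% interval of -0.13 to 0.72 (limma adjusted p = 0.924). That interval, read as a fold, runs from 0.914 to 1.65.

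Wnk4, the WNK kinase largely confined to the distal nephron, was steadier. It was at 50.5, 51.2 and 57.1 FPKM in IVCC kidneys and at 54.2, 46.8 and 48.8 FPKM in Sham kidneys. The highest Wnk4 library was IVCC replicate 3, which was the lowest IVCC library for Wnk1. Its log2 fold change was 0.08 with a 95% interval of -0.18 to 0.34, or 0.883 to 1.27 as a fold (limma adjusted p = 0.925). The remaining family members contributed little RNA: Wnk2 stayed at 0.534 to 0.677 FPKM and Wnk3 at 0.012 to 0.041 FPKM over the 6 libraries, both below the filter.

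The ratio of Wnk4 to Wnk1 within a library does not depend on library scaling. It was 0.902, 0.871 and 1.36 in IVCC and 1.06, 1.15 and 1.40 in Sham, with overlap between the groups. It was highest in replicate 3 of each group. The log2 ratio differed by -0.22 between IVCC and Sham (exact two-sided permutation test, p = 0.4, adjusted p = 0.571 over 8 ratios). That difference was -0.14 after the length and GC correction described further on, and -0.43 to -0.10 when each library was left out in turn. An exact test of 3 against 3 libraries cannot give a p below 0.1.

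The effector kinases SPAK, encoded by Stk39, and OSR1, encoded by Oxsr1, are close relatives that share substrates. Stk39 was at 9.92, 12.6 and 11.4 FPKM in IVCC kidneys and at 12.03, 10.4 and 9.75 FPKM in Sham kidneys, with the groups mixed. Its log2 fold change was 0.07 with a 95% interval of -0.23 to 0.37 (limma adjusted p = 0.936), and the sign turned to -0.01 after the length and GC correction described further on and to -0.00089 without both libraries numbered 3.

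Oxsr1 (chromosome 9, 119238432 to 119322427, minus strand) was at 12.1, 13.3 and 12.7 FPKM in IVCC kidneys, against 11.3, 10.8 and 12.01 FPKM in Sham kidneys. All 3 IVCC libraries lay above all 3 Sham libraries, with the lowest IVCC library, replicate 1, close to the highest Sham library, replicate 3. The means were 12.7 ± 0.595 and 11.4 ± 0.622 FPKM in IVCC and Sham kidneys (SD, n = 3 each), which put the log2 fold change at 0.15, its standard error at 0.10 and its 95% interval at -0.09 to 0.39 (limma adjusted p = 0.924). After the length and GC correction the log2 fold change was 0.04 and the groups overlapped.

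The 2 kinases were expressed at nearly the same level. Their within-library ratio, Stk39 over Oxsr1, was 0.817, 0.942 and 0.903 in IVCC and 1.06, 0.964 and 0.812 in Sham. The log2 ratio differed by -0.09 (exact permutation p = 0.5, adjusted p = 0.571). Of their cofactors, Cab39, which encodes the scaffold MO25 alpha that activates both kinases, averaged 40.1 ± 2.83 FPKM in IVCC kidneys and 40.05 ± 0.513 FPKM in Sham kidneys. Its relative Cab39l was at 30.4, 29.8 and 29.5 FPKM in IVCC kidneys and at 27.1, 29.2 and 28.9 FPKM in Sham kidneys, without overlap, with a log2 fold change of 0.07. Of the list of other WNK kinases and cofactors, 4 of 7 genes were tested, 4 had higher fitted values, 0 were called, and the median log2 fold change was 0.05. Cab39 counted as higher at a log2 fold change of 0.00056. After the length and GC correction 2 were higher and 2 lower with a median of 0.04. Of the 4 tested, 1 was higher without overlap, beside 4.09% of all tested genes.

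Klhl3 (chromosome 13, 58000228 to 58113592, minus strand), the adaptor that binds WNK kinases to the ligase, was at 6.05, 7.24 and 1.62 FPKM in IVCC kidneys, against 3.005, 3.13 and 0.754 FPKM in Sham kidneys. Within each group replicate 3 was far below the others, and IVCC replicate 3 lay below Sham replicates 1 and 2. At each replicate number, however, the IVCC library was above the Sham library. With the replicate number added to the limma fit as a block, the adjusted p of Klhl3 was 0.0856. Whether the numbers pair the samples is not known. Between the highest and the lowest library the level differed 9.61-fold, and the coefficient of variation of 69.4% over the 6 libraries exceeded that of 98.85% of tested genes (median of all tested genes, 15.8%). The means were 4.97 ± 2.96 FPKM in IVCC kidneys and 2.30 ± 1.34 FPKM in Sham kidneys (SD, n = 3 each), a ratio of 2.16. Only 0.984% of tested genes had a larger absolute log2 fold change than the 0.80 of Klhl3. Its 95% interval, however, ran from -0.35 to 1.94, or 0.786 to 3.84 as a fold (limma adjusted p = 0.924). The log2 fold change was 0.39 without Sham replicate 3, 0.48 without IVCC replicate 2 and 1.31 without IVCC replicate 3.

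Cul3, the scaffold of the ligase, was the least variable member, with a coefficient of variation of 6.42%. It was at 57.8, 65.8 and 57.1 FPKM in IVCC kidneys and at 58.8, 61.6 and 65.7 FPKM in Sham kidneys, which put its log2 fold change at -0.04 (95% interval -0.30 to 0.22, limma adjusted p = 0.952), a sign that turned under 2 other scalings, to 0.13 as TPM and 0.05 after quantile normalization. The ratio of Klhl3 to Cul3 was 0.105, 0.110 and 0.0285 in IVCC and 0.0511, 0.0508 and 0.0115 in Sham. The log2 ratio differed by 1.15 between IVCC and Sham with the groups overlapping (exact permutation p = 0.3, adjusted p = 0.571). It was 0.44 without Sham replicate 3, 1.79 without IVCC replicate 3 and 0.75 after the length and GC correction.

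Other parts of the ligase machinery, from a list of 16 genes for the alternative adaptor, the RING subunit, neddylation and the COP9 signalosome, had 2 higher and 14 lower fitted values in IVCC, a median log2 fold change of -0.12 and 0 calls, while as TPM 11 were higher and 5 lower with a median of 0.05. Klhl2, the adaptor most closely related to Klhl3, averaged 14.2 ± 1.08 FPKM in IVCC kidneys and 12.9 ± 2.30 FPKM in Sham kidneys, and its replicate 3 was the lowest library of each group as well, at 12.9 FPKM in IVCC kidneys and 10.3 FPKM in Sham kidneys. Lower in IVCC without overlap were 2 of the 16, the signalosome genes Cops2 and Cops3, beside 4.22% of all tested genes. Cops2 was at 38.9, 41.0 and 36.8 FPKM in IVCC kidneys and at 41.1, 42.5 and 49.0 FPKM in Sham kidneys, and Cops3 was at 47.5, 45.7 and 48.1 FPKM in IVCC kidneys and at 50.6, 49.5 and 64.9 FPKM in Sham kidneys. Sham replicate 3 was the highest library for 11 of the 16 genes. The median was -0.03 without Sham replicate 3, -0.03 after the length and GC correction and -0.06 without both libraries numbered 3, where 7 fitted values were higher and 9 lower.

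Nedd4l was the member with the lowest log2 fold change. It was at 12.2, 13.6 and 12.5 FPKM in IVCC kidneys and at 14.8, 16.7 and 12.2 FPKM in Sham kidneys, where replicate 3 lay within the IVCC range. Means of 12.8 ± 0.713 FPKM in IVCC kidneys and 14.6 ± 2.26 FPKM in Sham kidneys (SD, n = 3 each) gave a log2 fold change of -0.17 with a 95% interval of -0.48 to 0.14 (limma adjusted p = 0.924). As TPM its log2 fold change was -0.0072.

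The fitted value of its paralog Nedd4 was on the other side of 0, at 58.3, 67.7 and 46.9 FPKM in IVCC kidneys and at 49.6, 56.2 and 39.8 FPKM in Sham kidneys, with a log2 fold change of 0.24 (limma adjusted p = 0.924). The ratio of Nedd4l to Nedd4 was 0.209, 0.200 and 0.267 in IVCC, against 0.297, 0.2975 and 0.307 in Sham. These groups did not overlap, and the Sham ratios were nearly constant. The log2 ratio differed by -0.43 between IVCC and Sham, which gave the smallest p that the exact permutation test allows (p = 0.1, adjusted p = 0.571 over 8 ratios). The difference was -0.55 to -0.35 when each library was left out in turn, and -0.42 after the length and GC correction.

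Around Nedd4l, the aldosterone, Sgk1 and ENaC list had 18 members tested, 14 with higher and 4 with lower fitted values in IVCC, 0 called, and a median log2 fold change of 0.07, while as TPM 18 were higher with a median of 0.24. Sgk1, the aldosterone-induced kinase that inhibits NEDD4-2, was at 24.4, 32.9 and 46.7 FPKM in IVCC kidneys and at 24.2, 26.0 and 40.7 FPKM in Sham kidneys. In both groups its replicate 3 was the highest, opposite to Klhl3. The mineralocorticoid receptor gene Nr3c2, named after its values were seen, was lowest in replicate 3 of both groups, at 2.21, 3.04 and 1.31 FPKM in IVCC kidneys and at 1.83, 2.02 and 0.585 FPKM in Sham kidneys. Scnn1a, the alpha subunit of the epithelial sodium channel, averaged 52.6 ± 8.05 FPKM in IVCC kidneys and 49.3 ± 10.2 FPKM in Sham kidneys.

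Kcnj10 (chromosome 1, 172341210 to 172374085, plus strand) was at 19.6, 19.9 and 15.3 FPKM in IVCC kidneys and at 18.6, 13.7 and 14.4 FPKM in Sham kidneys. Sham replicate 1 lay among the IVCC libraries, so the groups overlapped. Means of 18.3 ± 2.58 FPKM in IVCC kidneys and 15.6 ± 2.66 FPKM in Sham kidneys (SD, n = 3 each) gave a log2 fold change of 0.22 with a 95% interval of -0.15 to 0.59 (limma adjusted p = 0.924). Kcnj16, whose product Kir5.1 joins Kir4.1 in the basolateral channel, was far more abundant, at 225.6 ± 26.2 FPKM in IVCC kidneys and 209.8 ± 6.54 FPKM in Sham kidneys. The ratio of Kcnj10 to Kcnj16 was 0.0856, 0.0796 and 0.0773 in IVCC and 0.0907, 0.0664 and 0.0661 in Sham, with a log2 difference of 0.13 (exact permutation p = 0.4, adjusted p = 0.571). The list of basolateral channels and the sodium pump had 6 of 9 fitted values higher, 0 called, and a median log2 fold change of 0.05, while as TPM 9 of 9 were higher with a median of 0.23.

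**Figure D2:**
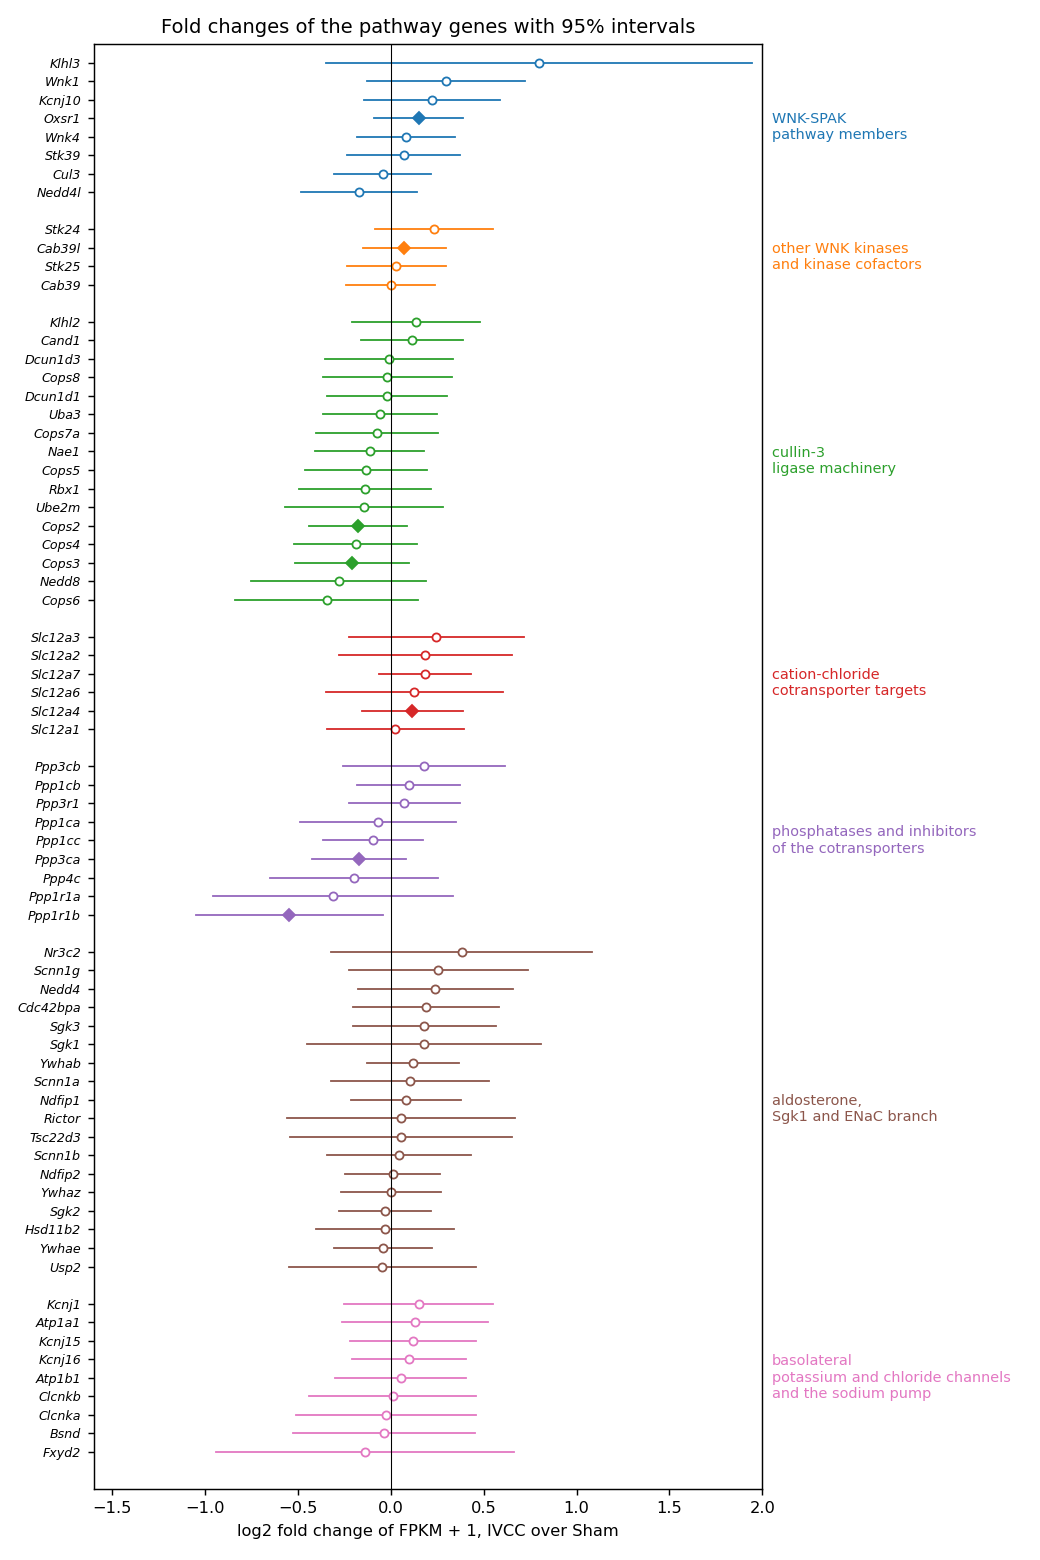
Log2 fold change of FPKM + 1, IVCC over Sham, with 95% intervals from limma, for the 8 pathway genes (top) and the tested genes of 6 related lists. Filled diamonds mark genes whose groups do not overlap and open circles those that overlap. Every interval of the 8 members spans 0, and that of Klhl3 is the widest, from -0.35 to 1.94.

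The cotransporters that SPAK and OSR1 act on had higher fitted values in IVCC for 6 of 6 tested genes, with a median log2 fold change of 0.16 and 0 called, and after the length and GC correction 5 of 6 were higher with a median of 0.07. Without IVCC replicate 2, 4 were higher and 2 lower with a median of 0.08. Slc12a3, the thiazide-sensitive cotransporter NCC of the distal convoluted tubule, was at 296.3, 277.8 and 235.7 FPKM in IVCC kidneys and at 270.7, 169.9 and 253.0 FPKM in Sham kidneys. Slc12a1, the bumetanide-sensitive NKCC2 of the thick ascending limb, averaged 127.2 ± 23.6 FPKM in IVCC kidneys and 123.7 ± 7.41 FPKM in Sham kidneys, and the widely expressed NKCC1 gene Slc12a2 averaged 9.11 ± 1.87 and 7.92 ± 1.84 FPKM in IVCC and Sham kidneys. The potassium chloride cotransporter gene Slc12a4 did not overlap between groups, at 3.60, 3.81 and 3.89 FPKM in IVCC kidneys and at 3.53, 3.12 and 3.55 FPKM in Sham kidneys. It was the only 1 of the 6 without overlap, beside 4.09% of all tested genes higher without overlap. Among phosphatases and inhibitors that act on the cotransporters, 3 of 9 fitted values were higher and 6 lower with a median of -0.09 and 0 called, while 5 were higher and 4 lower as TPM and after quantile normalization, with medians of 0.08 and 0.02. Ppp1r1b, an inhibitor of protein phosphatase 1, was at 13.4, 12.97 and 18.1 FPKM in IVCC kidneys and at 18.5, 18.6 and 30.3 FPKM in Sham kidneys, without overlap, and had a log2 fold change of -0.55 (unadjusted p = 0.0377, limma adjusted p = 0.924). Ppp3ca, a catalytic subunit of calcineurin, was at 13.7, 15.2 and 15.8 FPKM in IVCC kidneys and at 16.5, 16.0 and 18.2 FPKM in Sham kidneys, also without overlap. Thus 2 of these 9 genes were lower without overlap, beside 4.22% of all tested genes.

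Set against NCC within each library, Wnk4 showed no separation of the groups. Its ratio to Slc12a3 was 0.170, 0.184 and 0.242 in IVCC and 0.200, 0.276 and 0.193 in Sham, a log2 difference of -0.16 (exact permutation p = 0.5, adjusted p = 0.571). The ratio of Klhl3 to Slc12a3 was 0.0204, 0.0261 and 0.00689 in IVCC and 0.0111, 0.0184 and 0.00298 in Sham. It was lowest in replicate 3 of each group, where the level of NCC was not lower in proportion. Its log2 difference was 0.86 (exact permutation p = 0.5, adjusted p = 0.571), which was 0.11 without Sham replicate 3, 1.44 without IVCC replicate 3 and 0.48 after the length and GC correction. The ratio of Stk39 to Slc12a1 differed by 0.05 on the log2 scale (exact permutation p = 0.9, adjusted p = 0.9), with a sign that turned to -0.22 without both libraries numbered 3.

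**Figure D3:**
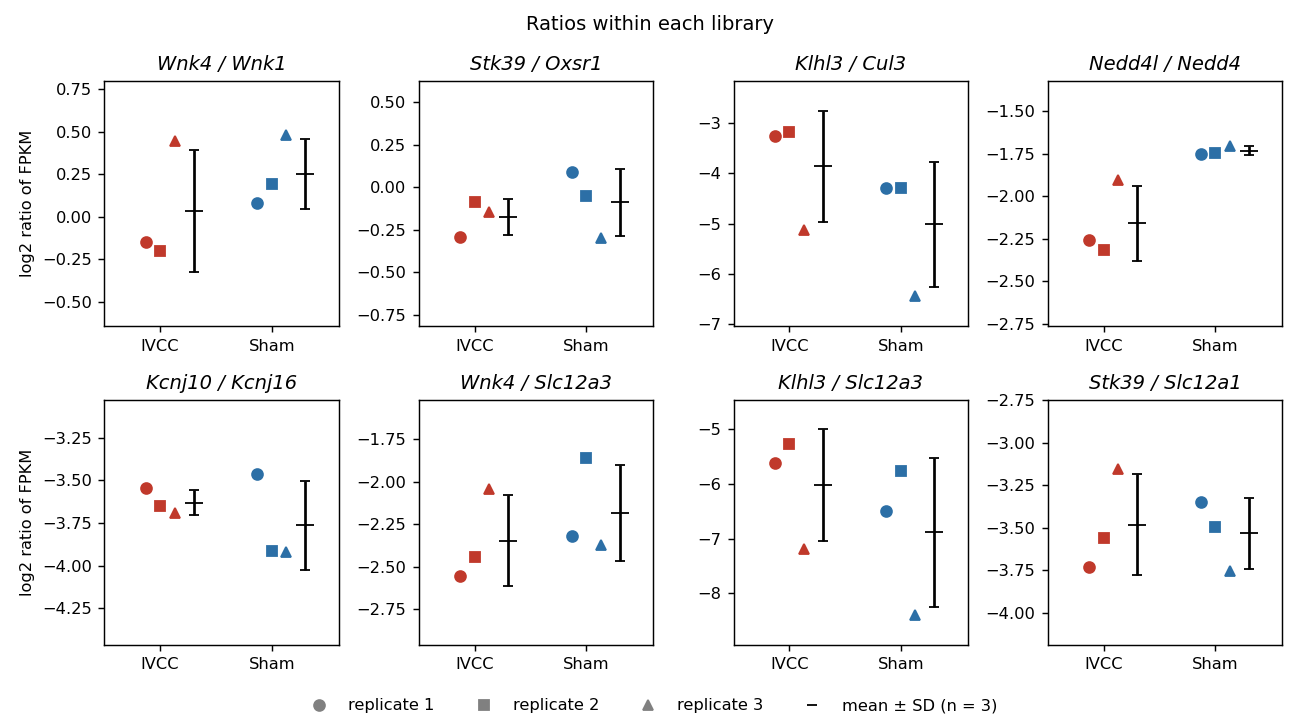
Log2 ratio of FPKM of 2 genes within each library for the 8 ratios compared, in 3 IVCC (red) and 3 Sham (blue) libraries, with marker shapes for replicate numbers and black bars for the mean ± SD of 3 libraries. The ratio of Nedd4l to Nedd4 is the one without overlap, with a difference of -0.43. The vertical axis of each panel has its own range.

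In bulk tissue, fewer cells of a type and less RNA per cell cannot be told apart. Of 10 markers of the distal convoluted and connecting tubule, where Wnk4, Klhl3 and Kcnj10 are expressed, 8 had higher fitted values in IVCC, 0 were called, and the median log2 fold change was 0.15, with 5 higher and 5 lower and a median of 0.09 after the length and GC correction. Sham replicate 2 was the lowest library for 7 of the 10, and without it 5 were higher and 5 lower with a median of -0.0063. Their summed level, most of it from Klk1, was 4348 to 6674 FPKM in IVCC kidneys and 4329 to 7472 FPKM in Sham kidneys. The 8 thick limb markers had 2 higher fitted values and a median of -0.12, which was 0.05 as TPM with 4 higher, and the 8 principal cell markers had 3 higher and a median of -0.06, which was 0.11 as TPM with 5 higher. Both medians turned with single libraries: the thick limb median was 0.04 with 5 of 8 higher without Sham replicate 3, the highest library for 6 of 8, and -0.30 without Sham replicate 2, and the principal cell median was 0.07 without IVCC replicate 2 and 0.08 without Sham replicate 1. Fitted values were higher for 6 of 8 intercalated cell, 5 of 8 proximal tubule, 5 of 8 stromal and smooth muscle and 5 of 6 tested leukocyte markers, with medians of 0.02, 0.10, 0.49 and 0.31 and 0 called. The intercalated cell median turned to -0.05 without IVCC replicate 3 or without Sham replicate 2. Of the thick limb markers 1 of 8, Ptger3, was lower without overlap at an unadjusted p under 0.05, with a log2 fold change of -0.44. Lower without overlap were 4.22% of all tested genes. Of the principal cell markers 1 of 8, Aqp4, was lower at an unadjusted p under 0.05 with the groups overlapping, at -0.80. Of the proximal tubule markers 1 of 8, Slc34a1, was higher without overlap, at 0.17. The stromal genes Pdgfrb, Pdgfra, Col1a1, Col1a2 and Col3a1 were higher without overlap, with log2 fold changes of 0.47 to 0.54. The smooth muscle genes Acta2, Myh11 and Tagln were lower with overlap, at -0.50, -0.31 and -0.27. The 7 podocyte markers reported here all had higher fitted values, with a median of 0.47, 5 at an unadjusted p under 0.05, 3 without overlap and 0 called. Of all tested genes, 3.56% had an unadjusted p under 0.05 and 4.09% were higher without overlap. Counts of the same kinds were 5 and 5 of 8 stromal and smooth muscle, 3 and 3 of 8 endothelial, and 3 and 2 of 6 tested leukocyte markers. The 3 leukocyte markers at an unadjusted p under 0.05 did not share a direction. Csf1r was lower in IVCC, with a log2 fold change of -0.37, and Lyz2 and C1qb were higher, at 0.72 and 0.41. The summed level of the 7 podocyte markers was 56.4 to 91.9 FPKM in IVCC kidneys and 47.0 to 53.2 FPKM in Sham kidneys, and 7 of 7 were highest in IVCC replicate 2. Endothelial markers had 8 of 8 higher fitted values and a median of 0.29, at a summed 164.2 to 173.1 FPKM in IVCC kidneys against 141.7 to 158.9 FPKM in Sham kidneys, and without Sham replicate 3 they had 7 of 8 higher and a median of 0.15. Most of that sum came from Emcn and Plvap, which each overlapped between the groups, with log2 fold changes of 0.06 and 0.14. The part of these cell types in the values of Wnk1, Oxsr1 and Cul3, which are expressed widely, was not tested.

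Wnk1, Klhl3 and Kcnj10 varied together. Over the 6 libraries the Pearson correlation of log2(FPKM + 1) was 0.94 between Wnk1 and Kcnj10, 0.93 between Wnk1 and Klhl3 and 0.77 between Klhl3 and Kcnj10, and the next of the 28 pairs was Wnk4 with Stk39 at 0.57. The lowest was Oxsr1 with Nedd4l, at -0.69. These values describe 6 points that share their libraries and their scaling. Among all tested genes, those most like Klhl3 were Slc16a14 and Zfp729a, at 0.999 and 0.998, and 298 genes exceeded 0.95. Slc16a14, a member of the monocarboxylate transporter family, was at 20.5, 25.5 and 6.88 FPKM in IVCC kidneys and at 11.8, 12.2 and 4.62 FPKM in Sham kidneys. Its replicate 3 was the lowest of each group, as in Klhl3. Its median transcript length is 3207 bp, and the lengths of the other genes above 0.95 were not compared. The genes most like Wnk1 were Sgms2 at 0.995 and Kl at 0.993, and those most like Kcnj10 were Dtx4 at 0.995 and Lrrn1 at 0.994. For Oxsr1 they were Ptpn1 at 0.996 and Sgsm2 at 0.986, and for Nedd4l they were Luc7l3 at 0.995 and Rnf24 at 0.986. Stk39 was most like Prpf18 at 0.98 and Fam114a1 at 0.97, Cul3 most like Atg4a at 0.98 and Phf11b at 0.97, and Wnk4 most like Foxc2 and Pidd1 at 0.96 each. With 12090 genes and 6 libraries such values arise for many genes, 5 to 298 of them above 0.95 per member.

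The libraries differed in how transcript length related to level, and the 3 longest members are the ones that varied together. Wnk1 has a median transcript length of 9469 bp, Klhl3 of 7149 bp and Kcnj10 of 5407 bp, longer than 98.7%, 96.0% and 89.9% of tested genes, while the other members lie between 3393 and 4647 bp. Relative to each gene's mean over the 6 libraries, the longest genes (over 5426 bp, 1201 genes) had a median deviation of -0.11 in IVCC replicate 3 and -0.25 in Sham replicate 3, while the shortest (under 973 bp, 1204 genes) stood at 0.16 and 0.40 in the same libraries. IVCC replicate 2 showed the reverse, 0.23 for the longest and -0.32 for the shortest genes. In these 3 libraries Wnk1 deviated by -0.15, -0.40 and 0.33, in the direction of other long genes, and Klhl3 by -0.63, -1.21 and 1.02, further in the same directions. In IVCC replicate 1 the longest genes were at 0.07, with Wnk1 at 0.26, Klhl3 at 0.80 and Kcnj10 at 0.22. In Sham replicates 1 and 2 the longest genes were at -0.03 and 0.09, with Klhl3 at -0.02 and 0.03. There Wnk1, at 0.14 and -0.18, and Kcnj10, at 0.15 and -0.27, deviated to the opposite side. The part of length in the shared pattern was not tested.

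A correction that subtracted, per library, the trend of deviations on transcript length and GC content was added after the data had been seen. Under it Wnk1 in IVCC replicate 3 and Sham replicate 3 came to -0.03 and -0.10, and Klhl3 to -0.55 and -0.97. Most of the deviation of Klhl3 in these libraries was still there after the correction, and most of that of Wnk1 was not. Corrected deviations in Sham replicates 1 and 2 were 0.18 and -0.29 for Wnk1 and 0.17 and -0.31 for Kcnj10. These were larger in size than before. The log2 fold changes after correction were 0.66 for Klhl3, 0.14 for Wnk1, 0.10 for Kcnj10 and 0.0034 for Wnk4, each smaller than before, and -0.25 for Nedd4l, which was larger in size. Limma adjusted p-values of the 8 members after correction were 0.890 to 0.996. Whether RNA quality or fragmentation differed between the libraries was not tested.

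**Figure D4:**
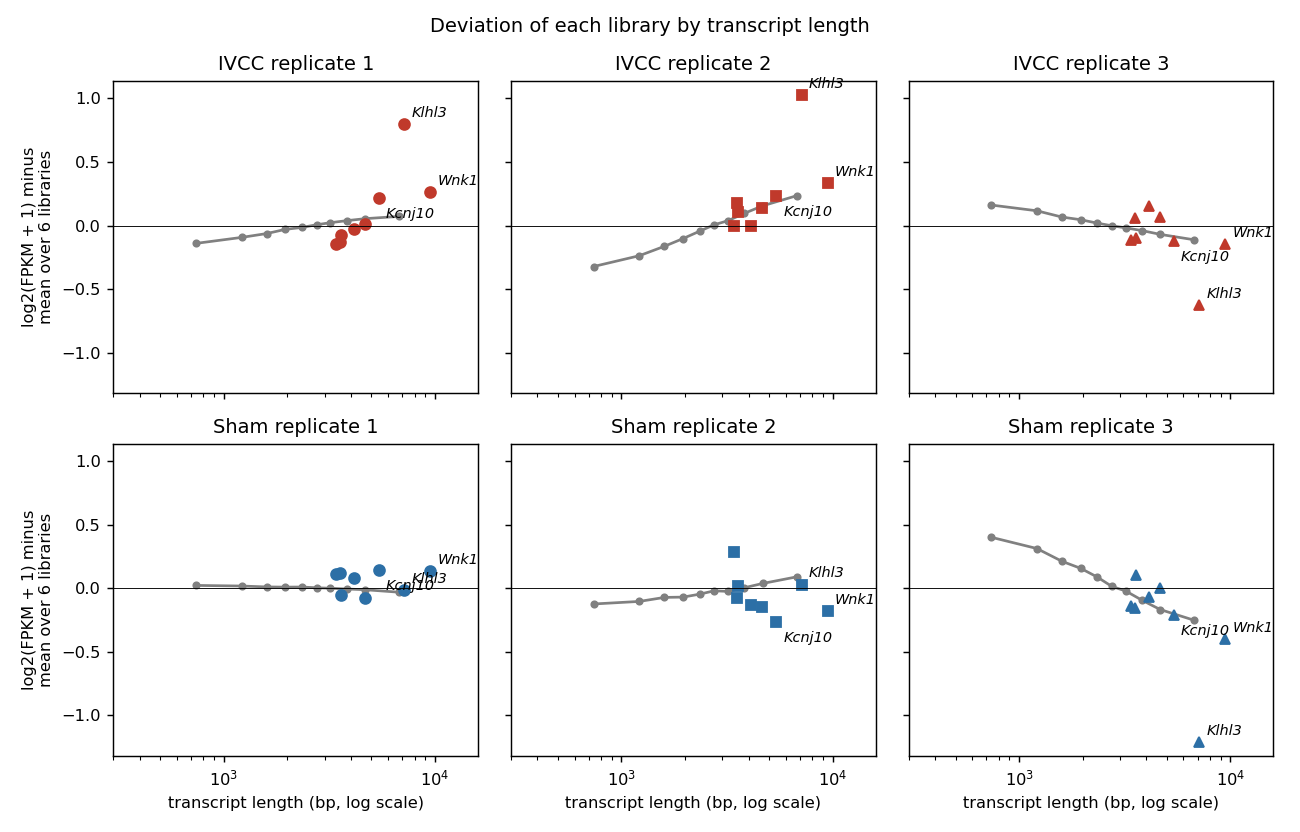
Deviation of log2(FPKM + 1) from each gene's mean over the 6 libraries against transcript length (log scale), 1 panel per library, IVCC in the top row and Sham in the bottom row. The grey line joins medians of 10 equal bins of the tested genes by length and coloured markers are the 8 members. Klhl3 lies off the grey line in IVCC replicates 1 to 3 and Sham replicate 3, where it reaches -1.21.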

How the data were processed

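Per the labels' protocols, the 3 IVCC and 3 Sham kidney libraries came from a stranded mRNA kit and were read single-end at 75 bp. The authors deposited 1 table of FPKM, 1 column per library, titled by group and replicate. The submitters' processing notes name Cufflinks 2.2.1, TopHat2 2.0.13, SAMtools 0.1.19 and Bowtie2 2.2.3 with the mm10 build, but no roles. The annotation, strand setting and scaling were not given in the sources used here. A gene's FPKM can depend on the isoforms its reads were shared among.

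Values of the 12090 of 24346 genes that averaged 1 FPKM or more were transformed to log2(FPKM + 1), which understates changes of low genes, and compared by limma 3.58.1 (R 4.3.3, eBayes with trend, two-sided), with Benjamini-Hochberg adjustment over all tested genes at 0.05. Ratios used exact permutation tests in SciPy 1.17.1. The limma step was also run on simulated data with independent noise and planted folds, which does not show its power in these libraries. Transcript length and GC content are medians over GENCODE M21 basic transcripts (99.4% of tested genes). The correction used natural splines with 4 degrees of freedom. Nominal depth assumed fragments of 200 bp and used values of 0.015 to 0.1 FPKM from genes with 1 transcript of 1500 to 5000 bp.

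All 8 members are named. Of each related list, called genes were to be named or, with none called, up to 3 genes without overlap by smallest unadjusted p, plus 11 core genes whatever their values (Slc12a1, Slc12a2, Slc12a3, Sgk1, Scnn1a, Klhl2, Cab39, Wnk2, Wnk3, Nedd4 and Kcnj16). For each member the 2 most correlated tested genes were named, leaving out predicted and small RNA genes. Outside that rule, Nr3c2 and the stromal and smooth muscle markers were chosen after their values were seen. So were the other named cell type markers and the marker genes named for tissue identity and purity. The members, lists and ratios were chosen with earlier results of these data known. For podocytes, 1 marker of the list is not reported here and was left out of its values.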

Additional observations from a re-analysis of the deposited data

How the results depend on the processing

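Of the 8 members 0 were called under all 19 alternatives (other pseudocounts, filters, scalings and variance settings, the block, the length and GC correction, and libraries left out), except that Klhl3 gave no value with a filter at 5 FPKM. The log2 fold change kept its sign in every alternative for Wnk1, Wnk4, Oxsr1, Klhl3, Nedd4l and Kcnj10, but its size moved. With single libraries left out it ranged from 0.17 (without Sham replicate 3) to 0.45 for Wnk1, 0.03 (without IVCC replicate 3) to 0.14 for Wnk4, 0.12 to 0.19 for Oxsr1, 0.39 to 1.31 for Klhl3, -0.28 to -0.07 (without Sham replicate 2) for Nedd4l and 0.14 (without Sham replicate 2) to 0.35 for Kcnj10. That of Stk39 reversed to -0.011 with the length and GC correction, with or without the block, to -0.00089 without both libraries numbered 3, and when single libraries were left out it ranged from -0.0034 to 0.15. The median over the 8 members was 0.08 to 0.16 with single libraries left out. Cul3 reversed to 0.13 as TPM, 0.053 after quantile normalization and 0.034 without both libraries numbered 3. TPM moved the median of all tested genes to 0.15. With single libraries left out the log2 ratio of Stk39 to Oxsr1 ranged from -0.19 to 0.0014, that of Wnk4 to Slc12a3 from -0.31 to 0.00054 and that of Stk39 to Slc12a1 from -0.11 to 0.17, and the last was -0.22 without both libraries numbered 3. The cause of these reversals was not tested.

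Over all genes 0 were called, with 0 to 4 when single libraries were left out, 4 without both libraries numbered 3 and 1 with block and correction together, all of them small RNA genes (Mir, Snora or Snord symbols) and none a member. Genes at an unadjusted p under 0.05 numbered 431, with 2388 under the replicate block, 1657 under the block with the correction, 678 with the correction, 780 without a filter, 282 with a filter at 5 FPKM, and 216 to 1030 with single libraries left out. Without both libraries numbered 3 there were 1052. Same-numbered libraries deviated together for numbers 2 and 3 (correlation across genes of 0.34 and 0.32) but not for number 1 (-0.11), and both libraries numbered 1 correlated better with another number. IVCC replicate 2 with Sham replicate 3 was at -0.37, and IVCC replicate 3 with Sham replicate 2 at -0.36. Deviations were taken from the mean of each group of 3, so these correlations depend on one another. They cannot decide whether the numbers pair the samples. The main comparison did not use the numbers as pairs. With the replicate block Klhl3 kept its log2 fold change of 0.80 at an adjusted p of 0.0856 (0.0856 to 1.0 over its 18 alternatives), 0 genes were called, and no call among the members changed. Depth is nominal, and for Klhl3 in Sham replicate 3 it came to 32 reads.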
